A study of Rattus norvegicus with 22 samples.

Results

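The Kv1 (Shaker) potassium channel genes were examined in 2 labelled cell populations of the neonatal rat spinal cord and in a random sample of ventral horn cells. Members were all probe sets to which the platform annotation gives the symbol Kcna1, Kcna2, Kcna3, Kcna4, Kcna5, Kcna6, Kcnab1 or Kcnab2, each probe set being kept apart. Of these 8 genes, 6 had a probe set, giving 10 members among the 1050 probe sets of the table, which name 643 genes. Under this annotation no probe set carried the symbols of the beta subunit genes Kcnab1 and Kcnab2, so they were not analysed here. Kcna1, Kcna2, Kcna4 and Kcna6 were each measured by a pair of probe sets, Kcna3 and Kcna5 by 1 each.

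Descending commissural interneurons (dCINs) filled 7 arrays, motor neurons (MNs) 7 and MIX samples, cells taken at random from the ventral horn, 8. All came from Wistar rats of postnatal day 0 to 4 for which the labels name no genetic change or drug treatment, from lumbar segment L2, and each array held RNA from another animal. dCINs were filled with rhodamine-dextran through their cut axons after a hemisection between L3 and L4, and MNs through the cut ventral roots. Labelled cell bodies were then collected by laser microdissection, and their RNA was amplified in a pair of rounds before hybridization. The MIX arrays had no label that picks out a cell type, and they held MN transcripts too, so they serve as a mixed background rather than as a cell type of their own.

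Kv1 channels are tetramers of pore-forming alpha subunits, with cytoplasmic beta subunits that alter trafficking and inactivation. Kv1.1 (Kcna1) and Kv1.2 (Kcna2) give low-threshold currents that limit repetitive firing and are gathered in axons beside the nodes of Ranvier, while Kv1.4 (Kcna4) gives a fast-inactivating A-type current. Kv1.6 (Kcna6) is another neuronal subunit, Kv1.3 (Kcna3) is best known from lymphocytes and microglia, and Kv1.5 (Kcna5) from heart and vascular muscle. In the rat assembly GRCr8 the annotation places Kcna5, Kcna1 and Kcna6 next to each other on chromosome 4 and Kcna3 beside Kcna2 on chromosome 2, with Kcna4 apart from them on chromosome 3.

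Signals are model-based summaries in arbitrary units on a linear scale, and they were not compared between probe sets because each binds its target with its own efficiency. Array medians lay between 43.5 and 50.9 in dCINs, 44.3 and 50.8 in MNs, and 45.0 and 48.2 in MIX samples. The cells per sample numbered 50 to 100 in dCINs, 55 to 250 in MNs and 95 to 187 in MIX samples. The MN marker Slc18a3 (vesicular acetylcholine transporter) had a median of 390 in dCINs (55.8 to 1133), 4020 in MNs (2692 to 5211) and 2704 in MIX samples (1672 to 3801) at probe set U09211_at. Arrays 1 and 2 of the labelled groups stood apart: 16.0% of all probe sets were higher on both dCIN arrays than on every other dCIN array, 35.4% in MNs, where they came from 250 and 230 cells, and 1.52% in MIX samples. Values are therefore also given without arrays 1 and 2 where they touch a result. In RNA taken from groups of cells, fewer cells of a type and less RNA per cell cannot be told apart.

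Kcna1 was the Kv1 gene that differed between the labelled populations, and it was lower in dCINs than in MNs. At probe set X12589cds_s_at the signal was 41.4 at the lowest, 54.6 at the median and 62.5 at the highest in the 7 dCIN arrays, against 72.0, 76.3 and 91.5 in the 7 MN arrays. No dCIN array reached the lowest MN array. The arrays averaged 53.5 ± 7.12 in dCINs against 81.0 ± 8.92 in MNs (SD, n = 7 each), a log2 difference of -0.60 (SE 0.11, 95% interval -0.83 to -0.38), or 1.52-fold lower in dCINs. The adjusted p was 0.00325 by limma with Benjamini-Hochberg adjustment over all 1050 probe sets, the rank by p being 14.

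The other Kcna1 probe set, M26161_at, gave a difference of similar size with more spread. Its signal was 88.1 at the lowest, 121 at the median and 232 at the highest in dCINs, against 149, 216 and 280 in MNs. A single dCIN array, array 1 with 232, lay within the MN range, and the next highest dCIN array had 140, below every MN array. The log2 difference was -0.70 (SE 0.21, 95% interval -1.15 to -0.25), or 1.63-fold, and it missed the adjusted p threshold of 0.1 (limma, Benjamini-Hochberg, adjusted p = 0.111, rank 42). With arrays 1 and 2 as a covariate the difference was the same and passed (limma adjusted p = 0.071), as it did with array weights (adjusted p = 0.00227). Without dCIN array 1 the difference was -0.85 with an adjusted p of 0.0108 in the same limma fit. It also passed without MN array 2 (adjusted p = 0.0977) and without MN array 3 (adjusted p = 0.0604). In the other 11 of 14 fits with 1 array left out it missed, with a limma adjusted p of 0.113 to 0.225. Over all alternatives this probe set was called in 9 of 27. Kcna1 belongs to the genes that the study picked out from these same arrays, at X12589cds_s_at, so its direction here is no independent evidence. The study also measured Kcna1 by real-time RT-PCR on RNA from other animals, and reported ratios in good agreement with the arrays. Those measurements were not examined here.

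Over arrays 3 to 7 of both populations the Kcna1 difference was -0.70 at X12589cds_s_at (SE 0.13, limma adjusted p = 0.00946) and -1.03 at M26161_at (SE 0.18, limma adjusted p = 0.00613). Over arrays 1 and 2, with 2 arrays a group and no test, it was -0.37 and 0.13. At M26161_at the dCIN arrays 1 and 2 had 232 and 135, against 163 and 159 on MN arrays 1 and 2, so the groups interleave there. Whether the array sets differ in this was not tested.

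**Figure D1:**
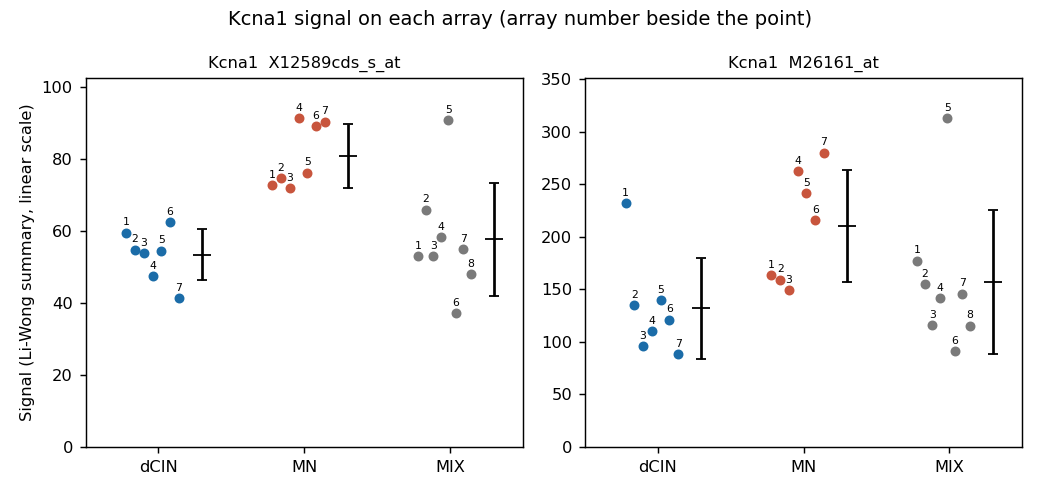
Kcna1 signal (linear, arbitrary units) on each array at probe sets X12589cds_s_at and M26161_at, by group (dCIN, MN, MIX), each point carrying its array number and the bar giving the mean with SD. At X12589cds_s_at all dCIN arrays (41.4 to 62.5) lie below all MN arrays (72.0 to 91.5), while at M26161_at dCIN array 1 (232) and MIX array 5 (313) stand above the rest of their groups.

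In the MIX samples Kcna1 was between the labelled populations on average, with a wide spread. At X12589cds_s_at the MIX arrays had 37.2 at the lowest, 54.0 at the median and 91.0 at the highest, so they spanned nearly the whole range of both populations. At M26161_at they had 91.1, 144 and 313. The mean order was thus MN, then MIX, then dCIN at both probe sets. At X12589cds_s_at, however, the MIX median lay just below the dCIN median of 54.6. Without MIX array 5 the log2 difference of dCIN and MIX there was 0.021 instead of -0.08, so this order rested on that array.

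MN and MIX samples differed at X12589cds_s_at, by a log2 difference of 0.53 (SE 0.14, 95% interval 0.24 to 0.81), or 1.44-fold higher in MNs, with a limma adjusted p of 0.0982 and with overlapping arrays. This call lay close to the threshold, and it was kept in 3 of 22 fits with an array omitted (without MIX array 2, MIX array 5 or MN array 3). In the other 19 the adjusted p was 0.101 to 0.25. At M26161_at the difference was 0.48 (SE 0.23, 95% interval 0.0036 to 0.95, limma adjusted p = 0.412). dCINs and MIX samples could not be separated at either probe set, with differences of -0.08 (95% interval -0.36 to 0.21) and -0.22 (95% interval -0.70 to 0.25) and limma adjusted p of 0.968 and 0.944.

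The MIX array with the highest Kcna1 at both probe sets was array 5, with 91.0 and 313. The inhibitory marker Slc32a1 (vesicular GABA transporter) went opposite ways there at its 2 probe sets. On this array AF030253_at was the lowest of the MIX arrays (187, with 328 to 580 on the rest). In contrast, rc_AA996551_s_at was the highest (54.5, with 36.3 to 53.6 on the rest). The medians of dCINs and MNs were 488 and 82.3 at AF030253_at, but 37.4 and 36.9 at rc_AA996551_s_at, which barely told them apart. The MN markers Slc18a3 at U09211_at (2651, with a MIX median of 2704) and Calcb (149, with a MIX median of 170) were not raised on MIX array 5. At the other Slc18a3 probe set, X80395cds_s_at, this array had 44.1, with a MIX median of 42.7 and a MIX range of 34.3 to 44.6. Of the MN markers, only these genes were read on this array. The part of the cell mixture in its Kcna1 signal was not tested.

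Both Kcna1 probe sets moved together from array to array. After subtraction of group means the log2 values had a Pearson's r of 0.813 and a Spearman's rho of 0.724 over 22 arrays (permutation p = 5e-05 and 0.00065, adjusted p = 0.0002 and 0.0026 over 4 such pairs, 100000 two-sided permutations within groups). Without the 2 arrays farthest from the median r was 0.739. Within dCIN, MN and MIX arrays r was 0.633, 0.832 and 0.918, and without arrays 1 and 2 it was 0.878 over 16 arrays. Array-to-array spread at Kcna1 was thus shared by probe sets made from different sequence records of the gene.

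The pairs for the other genes had weaker correlations over the 22 arrays, which varied between groups. For Kcna4 r was 0.293 and rho 0.304 (permutation p = 0.219 and 0.195, adjusted 0.292 and 0.311), with r at 0.316 without the 2 farthest arrays. For Kcna6 r was 0.124 and rho 0.104 (permutation p = 0.584 and 0.645, adjusted 0.584 and 0.645), with r at 0.151 without the 2 farthest arrays. For Kcna2 r was below 0, at -0.50, with rho at -0.28 (permutation p = 0.0416 and 0.233, adjusted 0.0833 and 0.311). Without the 2 farthest arrays r for Kcna2 was -0.23. Within dCIN, MN and MIX arrays r was -0.03, 0.49 and 0.56 for Kcna4, and 0.11, 0.53 and -0.09 for Kcna6. For Kcna2 these values were -0.55, -0.17 and -0.69. Over the 16 arrays left without arrays 1 and 2, r was 0.41 for Kcna4, 0.12 for Kcna6 and -0.41 for Kcna2. The values within groups and over 16 arrays were not tested.

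**Figure D2:**
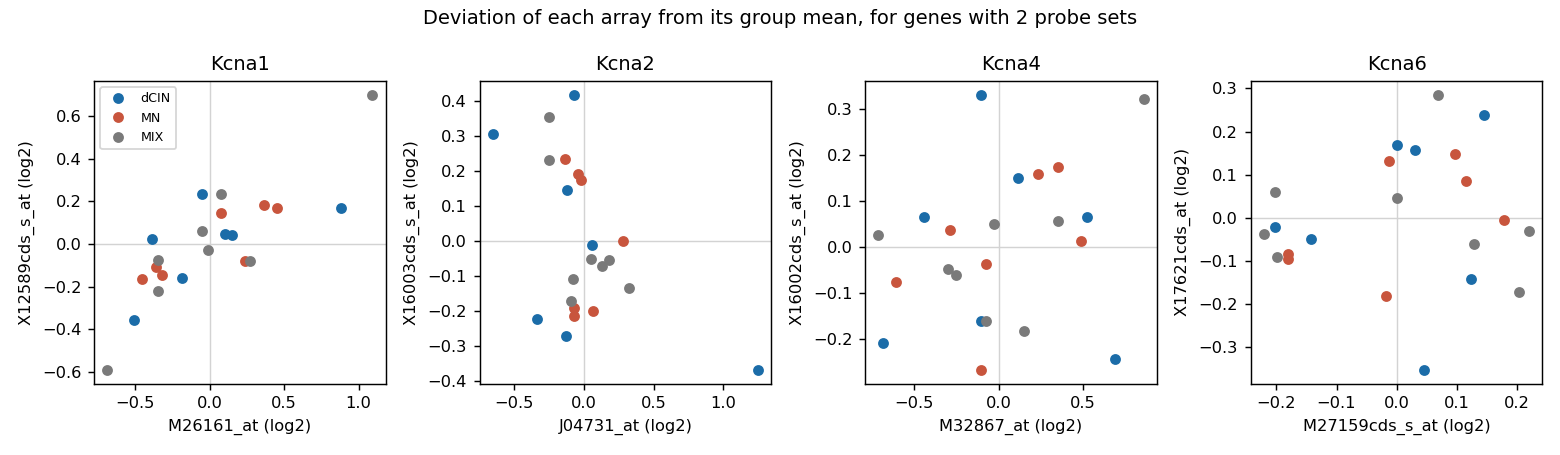
Deviation of the log2 signal from the group mean at one probe set (x axis) against the other (y axis) for the 4 genes with a pair of probe sets, each point being an array coloured by group (dCIN, MN, MIX). The Kcna1 points follow a line (r = 0.813), whereas those of Kcna4 (r = 0.293) and Kcna6 (r = 0.124) scatter more widely. Those of Kcna2 slope down (r = -0.50, and -0.23 without the 2 farthest arrays).

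Kcna4 gave different pictures at its 2 probe sets. At M32867_at the signal was 24.4 at the lowest, 36.6 at the median and 63.2 at the highest in dCINs, against 15.7, 22.8 and 33.5 in MNs, while MIX samples had 17.9, 28.2 and 52.9. The dCIN and MN ranges overlap, since dCIN arrays 2 (29.0) and 7 (24.4) lay within the MN range and the other 5 above it. The log2 difference of dCIN and MN was 0.71 (SE 0.22, 95% interval 0.24 to 1.18), or 1.64-fold, with a limma adjusted p of 0.125 (rank 45), so it was not called.

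The Kcna4 M32867_at difference was 0.62 over arrays 1 and 2 and 0.75 over arrays 3 to 7 (limma adjusted p = 0.216). With arrays 1 and 2 as a covariate it was 0.71 and passed (limma adjusted p = 0.065), as it did with array weights (adjusted p = 0.0982) and with a trend and robust prior (adjusted p = 0.0818). It also passed the threshold without dCIN array 2 (adjusted p = 0.098), dCIN array 7 (adjusted p = 0.0534) or MN array 4 (adjusted p = 0.0806). In the other 11 of 14 fits with 1 array left out it missed, with a limma adjusted p of 0.128 to 0.257. Over all alternatives this probe set was called in 6 of 26. M32867_at is also among the probe sets that the study picked from these arrays. The study chose them by the average rank over Cyber-T, limma and SAM, and not by the limma threshold used here. At the other Kcna4 probe set, X16002cds_s_at, the means were 39.3 ± 5.86 in dCINs, against 42.5 ± 4.30 in MNs (SD, n = 7 each), a difference of -0.12 (SE 0.11, 95% interval -0.35 to 0.11, limma adjusted p = 0.724). The 95% intervals of the 2 probe sets did not overlap, so the signals from this A-type channel gene cannot be given 1 direction.

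Against MIX samples Kcna4 M32867_at differed by 0.42 in dCINs (SE 0.22, 95% interval -0.04 to 0.88, limma adjusted p = 0.791) and by -0.29 in MNs (SE 0.22, 95% interval -0.75 to 0.17, limma adjusted p = 0.552). At X16002cds_s_at these differences were -0.02 and 0.10. None of them was called.

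Kcna2, the usual partner of Kcna1 in axonal channels, showed no called difference. At J04731_at the signal was 11.5 at the lowest, 16.6 at the median and 43.0 at the highest in dCINs, against 12.7, 13.6 and 17.0 in MNs and 12.1, 14.3 and 18.1 in MIX samples. The high dCIN value came from array 5 alone, the other 6 dCIN arrays having 11.5 to 18.8. The difference of dCIN and MN was 0.37 (SE 0.22, 95% interval -0.09 to 0.83, limma adjusted p = 0.623), and without dCIN array 5 it was 0.16. At X16003cds_s_at the means were 22.4 ± 4.74 in dCINs, 23.8 ± 3.32 in MNs (SD, n = 7 each) and 21.8 ± 3.05 in MIX samples (SD, n = 8), with a dCIN to MN difference of -0.10 (SE 0.14, 95% interval -0.40 to 0.19, limma adjusted p = 0.809).

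Kcna5 had a larger mean in MNs that rested on arrays 1 and 2, and it was not called. Its signal at M27158cds_at was 70.3 at the lowest, 81.8 at the median and 106 at the highest in dCINs, against 71.8, 80.3 and 158 in MNs and 64.2, 79.8 and 87.4 in MIX samples. MN arrays 1 and 2 had 156 and 158, while the other MN arrays had 71.8 to 86.1, inside the dCIN range. Over all arrays the difference of dCIN and MN was -0.20 (SE 0.19, 95% interval -0.61 to 0.22, limma adjusted p = 0.732). It was -0.70 over arrays 1 and 2, and over arrays 3 to 7 it was 0.0047 (SE 0.10, limma adjusted p = 0.989).

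Kcna5 and Kcna2 at X16003cds_s_at were the 2 members of 10 higher on both MN arrays 1 and 2 than on every other MN array, beside the 35.4% over all probe sets and 25 of the 57 probe sets of other potassium channels. Arrays 1 and 2 of MNs came from more cells than any other MN sample, and the part of cell number in these values was not tested.

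Kcna6, a neuronal subunit encoded beside Kcna1, showed no called difference at either probe set. At M27159cds_s_at the means were 39.5 ± 3.45 in dCINs, 43.2 ± 4.18 in MNs (SD, n = 7 each) and 42.8 ± 5.42 in MIX samples (SD, n = 8). The difference of dCIN and MN was -0.13 (SE 0.09, 95% interval -0.32 to 0.06, limma adjusted p = 0.715). X17621cds_at gave -0.13 as well (SE 0.10, 95% interval -0.35 to 0.09, limma adjusted p = 0.716), from means of 24.2 ± 3.37 in dCINs, against 26.4 ± 2.29 in MNs (SD, n = 7 each). The intervals of both probe sets leave out a fall in signal of the size seen for Kcna1 at X12589cds_s_at. Both were dim, with a mean log2 of 5.38 and 4.69, so this does not carry over to transcript amounts.

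Kcna3, best known from immune cells, differed between the labelled populations by less than its error. At M30312cds_s_at the signal was 21.2 at the lowest, 29.0 at the median and 34.6 at the highest in dCINs, against 24.5, 29.4 and 34.5 in MNs and 20.8, 29.4 and 42.3 in MIX samples. The groups overlap almost wholly. The difference of dCIN and MN was 0.00066 (SE 0.12, 95% interval -0.26 to 0.26, limma adjusted p = 0.998). This probe set was dim, with a mean log2 of 4.87, so the interval describes its signal and not the transcript amount. Of 7 listed microglia and leukocyte markers 1 was measured, with signals of 14.1 to 19.4 in dCINs, 15.0 to 19.6 in MNs and 14.9 to 27.5 in MIX samples.

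**Figure D3:**
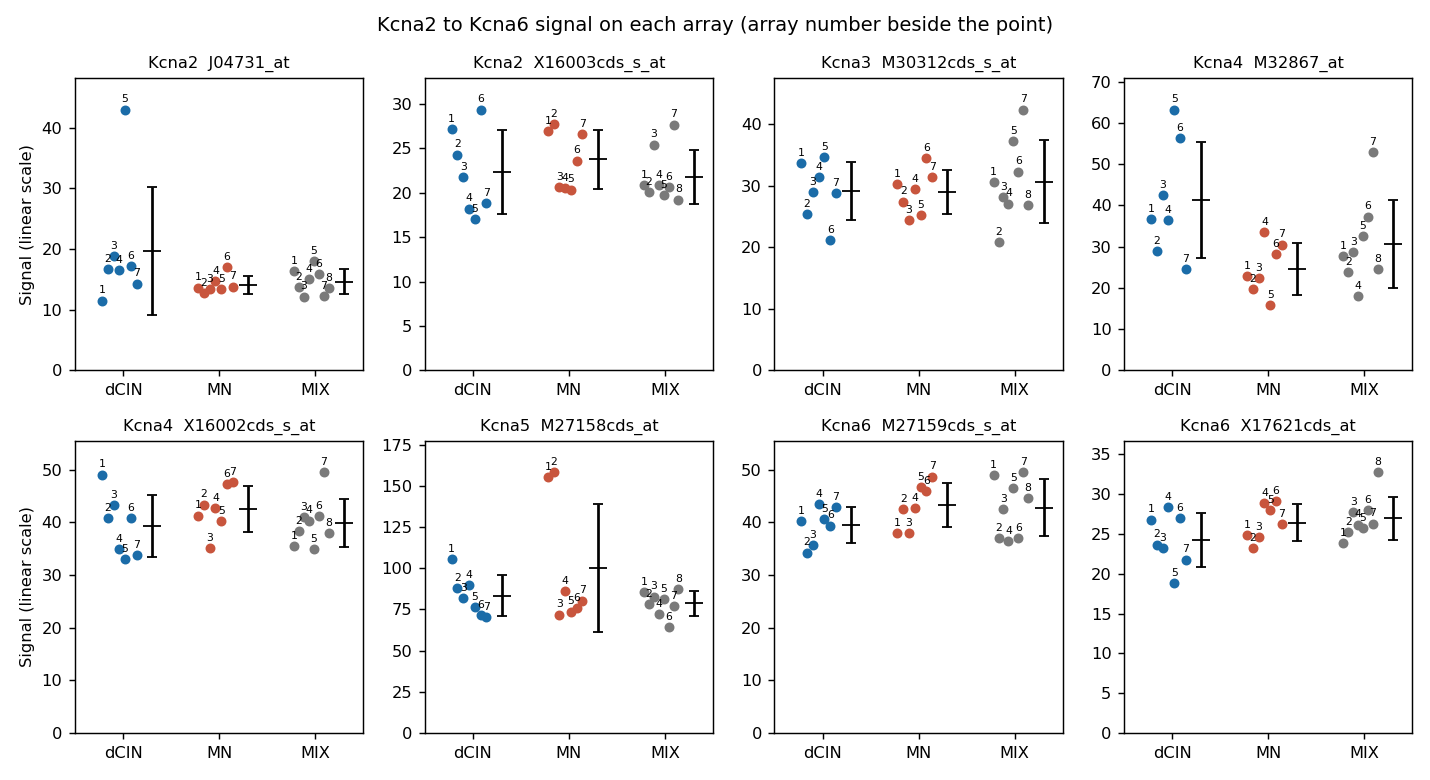
Signal (linear, arbitrary units) on each array at the 8 probe sets of Kcna2 to Kcna6, by group (dCIN, MN, MIX), with array numbers and the group mean with SD. Kcna4 M32867_at lies mostly higher in dCINs (24.4 to 63.2) than in MNs (15.7 to 33.5), Kcna5 is raised on MN arrays 1 and 2 (156 and 158), and Kcna2 J04731_at on dCIN array 5 (43.0).

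Taking the 10 members together, 7 differences of dCIN and MN were below 0 and 3 above, with a median of -0.12, against -0.03 over all 1050 probe sets. At an adjusted p under 0.1 (limma, Benjamini-Hochberg) 1 of the 10 was called, lower in dCINs, where 3.81% of all probe sets were called in either direction, 2.38% higher and 1.43% lower in dCINs. The same 1 member had groups that did not overlap, where 1.62% of all probe sets did not. At an unadjusted p under 0.05 there were 3 of 10 (both Kcna1 probe sets and Kcna4 M32867_at), where 10.9% of all probe sets passed. With so few members, and 2 of these 3 from 1 gene, a share of the family was not read from these counts.

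Against MIX samples no member was called in dCINs, where 0.476% of all probe sets were, all of them lower in dCINs and 0% higher. None passed an unadjusted p under 0.05 either, where 7.14% of all probe sets did, and none had groups apart, where 0.19% did. In MNs 1 of 10 was called, Kcna1 at X12589cds_s_at, where 0.952% of all probe sets were called, 0.667% higher and 0.286% lower in MNs. There 2 of 10 members, both of Kcna1, passed an unadjusted p under 0.05, where 11.8% of all did, and none had groups apart, where 0.19% did. The comparisons with MIX samples share the MIX arrays, so they do not bear on each other independently.

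**Figure D4:**
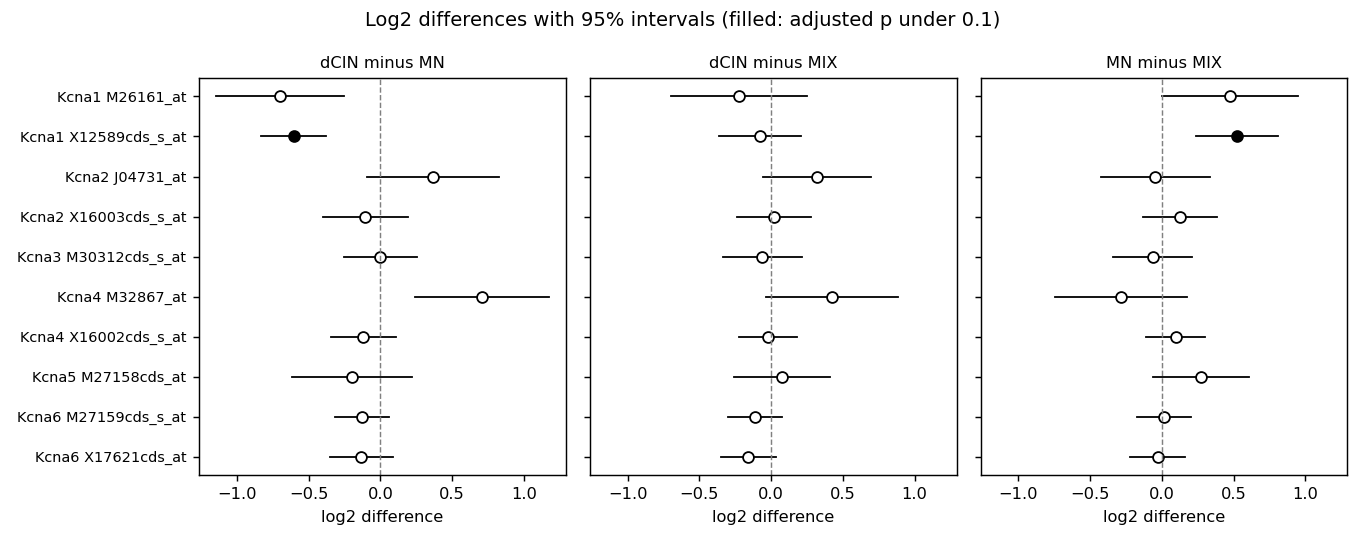
Log2 difference with 95% interval for each of the 10 member probe sets in 3 panels (dCIN minus MN, dCIN minus MIX, MN minus MIX), filled points having an adjusted p under 0.1. Filled points are Kcna1 X12589cds_s_at in dCIN minus MN (-0.60) and in MN minus MIX (0.53), and Kcna4 M32867_at lies at 0.71 and 0.42 in the panels of dCINs without being filled.

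The depth of signal set a limit on most of the family. Averaged over all arrays, 8 of the 10 members lay under a mean log2 of 6, and Kcna1 M26161_at and Kcna5 lay above it. No detection call was used here, so for the 8 dim members a missing difference in signal does not show equal transcript amounts. Probe sets whose names end in _s_at can match more than 1 transcript, and Kcna1 X12589cds_s_at is one of them.

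Among other potassium channels, from a list of 72 genes, 38 genes were measured by 57 probe sets. Between the labelled populations 1 of the 57 was called, where 3.81% of all probe sets were. Kcnc1 (Kv3.1), a channel of fast-spiking neurons, rose in dCINs, with 271 ± 86.9 in dCINs against 145 ± 39.7 in MNs (SD, n = 7 each), a log2 difference of 0.88 (SE 0.23, limma adjusted p = 0.0493). It too was picked by the study on these arrays, so its direction is no independent evidence. The median of the list was 0.00, against -0.03 over all probe sets. Of the genes next in order, Kcnh1 (an ether-a-go-go channel) had 77.1 ± 19.2 in dCINs and 57.2 ± 13.0 in MNs, and Kcnd3 (Kv4.3, an A-type channel) had 62.3 ± 31.1 in dCINs, against 35.8 ± 5.76 in MNs (SD, n = 7 each), both with a limma adjusted p of 0.365. Against MIX samples none of the 57 was called in dCINs or in MNs by limma, where 0.476% and 0.952% of all probe sets were. At an unadjusted limma p under 0.05 there were 3 and 12 of the 57, where 7.14% and 11.8% of all probe sets passed.

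Proteins that anchor or carry Kv1 channels were thinly represented, with 7 of 25 listed genes measured by 8 probe sets. For dCINs against MNs, dCINs against MIX samples and MNs against MIX samples, none of the 8 was called by limma. Of all probe sets 3.81%, 0.476% and 0.952% were called there. At an unadjusted limma p under 0.05 there were 0, 0 and 1 of the 8, where 10.9%, 7.14% and 11.8% of all probe sets passed. Cntn2 (contactin 2, which holds Kv1 channels beside the node) had 71.3 ± 13.9 in dCINs, against 81.1 ± 10.6 in MNs (SD, n = 7 each), a difference of -0.20 (limma adjusted p = 0.669). Cntn1 (contactin 1) had 44.8 ± 9.14 in dCINs, against 52.7 ± 9.01 in MNs (SD, n = 7 each), a difference of -0.24 (limma adjusted p = 0.618).

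The probe sets of other genes most like Kcna1 over the 22 arrays were found by Pearson's correlation of log2 values, given as a description over arrays that share groups. For X12589cds_s_at they were Ngfr (r = 0.73), Htr3a (r = 0.72) and Calcb (r = 0.71), and after subtraction of group means their r was 0.47, 0.55 and 0.34. For M26161_at they were Adra1d (r = 0.72), Htr3a (r = 0.71) and Edn1 (r = 0.71), with 0.58, 0.58 and 0.63 after subtraction. Htr3a, the serotonin receptor channel, was named by both Kcna1 probe sets. As these correlate with each other (r = 0.86 before subtraction), that is no second observation.

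For Kcna4 the probe sets had no like gene in common. M32867_at was most like Msmo1 (r = 0.68), Smad9 (r = 0.66) and Grid1 (r = 0.65), and X16002cds_s_at most like Kcna2 at X16003cds_s_at (r = 0.76), Il6 (r = 0.74) and Chrm1 (r = 0.71).

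MN markers differed between the populations compared for Kcna1, while few probe sets of glial markers did. The summed signal of 11 probe sets of MN markers was 7237 to 11363 in dCINs, 19559 to 22101 in MNs and 12771 to 19020 in MIX samples. In dCINs 6 of the 11 were lower than in MNs (limma adjusted p under 0.1), where 1.43% of all probe sets were. Against MIX samples 4 of the 11 were lower in dCINs, where 0.476% of all probe sets were, and neither Kcna1 probe set was called there. The 9 astrocyte probe sets summed to 5630 to 8780 in dCINs, 3574 to 6261 in MNs and 3661 to 9059 in MIX samples. Of these 1, for Apoe, was called higher in dCINs than in MNs, where 2.38% of all probe sets were. Of 8 oligodendrocyte probe sets none was called between dCINs and MNs, where 3.81% of all were. Their sums were 550 to 763 in dCINs, 550 to 839 in MNs and 426 to 840 in MIX samples. The part of cells other than the labelled ones in the Kcna1 difference was not tested.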

How the data were processed

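The deposited table holds intensity summaries that the authors computed from the perfect-match probes of Affymetrix RN_U34 arrays. They subtracted a global background within each array, normalized over all 22 arrays by quantile methods, summarized probe sets by the Li-Wong model with the affy package on a linear scale, and subtracted a universal minimum. Probe-level files were not used here, and software versions are not given in the sources used here. The table holds 1050 probe sets, of which 961 have 1 gene symbol in the platform annotation, 7 several and 82 none. The array table names no genome build, so no coordinates are printed, and the order of neighbouring genes was taken from the RefSeq annotation of GRCr8. Some genes are not reported here.

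Signals were log2-transformed and fitted with limma 3.58.1 (lmFit and eBayes) in R 4.3.3. The comparison of dCINs and MNs used the 14 arrays of these groups, and comparisons with MIX samples used a fit of 3 group means over 22 arrays. Benjamini-Hochberg adjustment ran over all 1050 probe sets, and an adjusted p under 0.1 was called. The script was tested on simulated data. Array signals rest on no count of molecules, and precision is limited by how many arrays each group has. Summaries used Python 3.11.15, pandas 2.3.3 and scipy 1.17.1, and figures matplotlib 3.10.9.

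Every member was named. Of the other lists, called probe sets and up to 3 others with the smallest p were eligible to be named, and for likeness the 3 probe sets with the highest correlation. The members and gene lists were chosen with earlier results of these data known. Alternatives varied the threshold, the arrays in the fit, an offset of 32, a filter at a mean log2 of 6, the normalization, the prior, array weights, covariates, a replicate block and each array left out. The fit of arrays numbered 3 and above was added after seeing the data. Replicate numbers in dCINs and MNs were not taken as pairs.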

Additional observations from a re-analysis of the deposited data

Results flagged for a closer look

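Of 30 groups of arrays (10 probe sets in 3 groups), 5 held an array set far from the others by Dixon's criterion on the linear signals. For normally distributed values chance meets it in about 1 in 20 groups. That the linear signals are so distributed was not checked, and all 5 arrays lay on the high side, so the count is not set against that rate. Kcna1 M26161_at had 232 on dCIN array 1, where the other dCIN arrays had 88.1 to 140. The same probe set had 313 on MIX array 5, where the other MIX arrays had 91.1 to 177. Kcna2 J04731_at had 43.0 on dCIN array 5, where the others had 11.5 to 18.8. Kcna4 X16002cds_s_at had 49.5 on MIX array 7, where the others had 34.9 to 41.2. Kcna6 X17621cds_at had 32.7 on MIX array 8, where the others had 23.9 to 28.0.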

How the results depend on the processing

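The Kcna1 X12589cds_s_at difference of dCINs and MNs stayed below 0 and called in 26 of 26 alternatives that kept the probe set. The differences were -0.70 to -0.40 and the limma adjusted p 0.000404 to 0.0214. The filter at a mean log2 of 6 removes this probe set (mean log2 5.95) and Kcna4 M32867_at, so it is not among their alternatives. Kcna1 M26161_at was called in 9 of 27 and Kcna4 M32867_at in 6 of 26, both always in 1 direction. The number of members called between dCINs and MNs was 2 with array medians subtracted, with a trend and robust prior, without MN samples of over 200 cells and over arrays numbered 3 and above, and it was 3 (both Kcna1 probe sets and Kcna4 M32867_at) with array weights and with arrays 1 and 2 as a covariate. It was 1 to 2 when 1 array was left out. The number called between MNs and MIX samples was 0 at a threshold of 0.05, in a fit of only those 2 groups, with quantile normalization, with medians subtracted, with the trend and robust prior, with the replicate block, without MN samples of over 200 cells and over arrays numbered 3 and above. It was also 0 at a mean log2 of at least 6, which removes the probe set, 2 with array weights and 0 to 1 when 1 array was left out. Between dCINs and MIX samples it stayed 0 throughout.

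Over all probe sets the calls between dCINs and MNs numbered 40, against 76 with array weights, 83 with arrays 1 and 2 as a covariate and 31 to 55 when 1 array was left out. Between dCINs and MIX samples 5 were called, against 1 at a threshold of 0.05, 2 with quantile normalization, 2 with the trend and robust prior, 68 with cell number as a covariate and 1 to 8 when 1 array was left out. Between MNs and MIX samples 10 were called, against 2 at a threshold of 0.05, 3 with quantile normalization, 33 with array weights, 2 without MN samples of over 200 cells and 2 to 14 when 1 array was left out. The causes were not tested. In dCINs and MNs same-numbered arrays correlated at -0.19 to 0.53 over 7 pairs, 5 of them over 0.1, and 4 of 14 arrays correlated best with their own number, among them both arrays numbered 1 (0.53). Since not every pair was over 0.1, and no label ties the numbers to a shared litter or day, they were not taken as pairs. With the replicate block 55 probe sets were called between dCINs and MNs, and 1 member.

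Differences near 0 changed sign, none of them called. Between dCINs and MNs Kcna3 was -0.0027 with quantile normalization, -0.082 with array weights, -0.037 with cell number and -0.0081 over arrays numbered 3 and above, and -0.044 to 0.075 when 1 array was left out. Kcna5 was 0.029 with array weights, 0.11 with cell number, 0.094 without MN samples of over 200 cells and 0.0047 over arrays numbered 3 and above. Between dCINs and MIX samples Kcna2 X16003cds_s_at was -0.0022 with the replicate block and -0.096 over arrays numbered 3 and above, and Kcna3 was 0.023 and Kcna4 X16002cds_s_at 0.00076 with array weights. When 1 array was left out, Kcna1 X12589cds_s_at was -0.16 to 0.021, Kcna2 X16003cds_s_at -0.048 to 0.084, Kcna3 -0.14 to 0.012 and Kcna4 X16002cds_s_at -0.078 to 0.023 there. Between MNs and MIX samples Kcna2 J04731_at was 0.051 with array weights and 0.0054 over arrays numbered 3 and above, Kcna3 was 0.11 with array weights, and Kcna5 was -0.017 without MN samples of over 200 cells. There Kcna6 M27159cds_s_at was -0.0094 with medians subtracted, and Kcna6 X17621cds_at was 0.027 with array weights, 0.012 with the replicate block and 0.024 without MN samples of over 200 cells. When 1 array was left out, Kcna3 was -0.14 to 0.0085, Kcna6 M27159cds_s_at -0.013 to 0.050 and Kcna6 X17621cds_at -0.053 to 0.012.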
